A study of Caenorhabditis elegans with 8 samples.

Results

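The 8 genes described here encode the enzymes that make and split trehalose in Caenorhabditis elegans: the trehalose-6-phosphate synthase genes tps-1 and tps-2, the trehalose-6-phosphate phosphatase gene gob-1, and the trehalase genes tre-1 to tre-5. They were chosen by name as the genes of this pathway and matched through the WBcel235 annotation, and they are 8 of the 46904 genes in the files. RNA-seq was made from whole worms on day 1 of adulthood, grown at 20 °C. The hel-1;daf-2 double mutant (strain IJ1121) carries hel-1(gk148684) and daf-2(e1370). The daf-2 mutant (CF1041) carries daf-2(e1370) alone, the hel-1 mutant (IJ501) carries hel-1(gk148684) alone, and the wild type is N2. Each genotype is 1 strain with 2 libraries, which the labels call independent biological repeats. daf-2 encodes the insulin/IGF-1 receptor, and e1370 lowers its function. hel-1 encodes an RNA helicase, and the study asked how its mutation changes gene expression in wild-type and daf-2 worms.

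Trehalose is a disaccharide of glucose that serves nematodes as a soluble sugar, an energy store and a protectant of membranes and proteins in drying or osmotic stress. TPS-1 and TPS-2 join UDP-glucose and glucose-6-phosphate into trehalose-6-phosphate, GOB-1 removes the phosphate, and trehalases split trehalose back into glucose. Mutants of daf-2 are known for storing more trehalose and glycogen than the wild type, and lowered insulin/IGF-1 signaling frees the FOXO factor DAF-16 to act on its target genes.

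In WBcel235, tps-1 (WBGene00006602) lies on the minus strand of chromosome X from 17467121 to 17474534 and gob-1 (WBGene00001649) on the plus strand of X from 15493602 to 15497504. tps-2 (WBGene00006603) lies on the plus strand of chromosome II from 14600902 to 14610554, and 24 of its exon bases are shared with arl-3 on the same strand. Of the trehalase genes, tre-4 (WBGene00006610) lies on X from 13472155 to 13475926 and shares 51 exon bases with efn-3 on the other strand. tre-5 (WBGene00006611) lies on II from 52997 to 55304, tre-3 (WBGene00006609) on V from 11709769 to 11715903, tre-2 (WBGene00006608) on IV from 6876731 to 6883442 and tre-1 (WBGene00006607) on I from 6554729 to 6558665. All are protein-coding, and the other 6 share no exon base with another gene. The levels of tps-2 and tre-4 could include reads of the partner gene over these bases, which was not tested.

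The libraries hold from 31555368 to 37552513 counts. One library stands apart: daf-2 replicate 2 had a summed level of 7 pharynx markers of 123 CPM (the usual depth-normalised read count, here on TMM-scaled library sizes), against 4.22 to 10.1 CPM in the other libraries. Its 8 body wall muscle markers summed to 3687 CPM against 1300 to 1734, its 7 hypodermis markers to 1538 against 501 to 875 and its 9 neuron markers to 236 against 150 to 188. No marker of these 4 lists was at 0 in it. Higher than in daf-2 replicate 1 were 6 of 7 pharynx, 8 of 8 muscle, 5 of 7 hypodermis and 8 of 9 neuron markers. Its 10 oocyte and germline markers summed to 4734 CPM against 5822 to 7040, and its 7 embryo markers to 2307 against 2710 to 3528. Of these, 0 of 10 oocyte and germline markers and 5 of 7 embryo markers were higher than in daf-2 replicate 1. The lower embryo sum was thus not shared by most markers of that list. In daf-2 replicate 2 the 8 intestine markers (2551 CPM) lay within the 2380 to 3684 of the others, and the 10 sperm markers (59.4 CPM) within 15.5 to 64.3. Against daf-2 replicate 1, 4 of 8 intestine and 10 of 10 sperm markers were higher in daf-2 replicate 2. The fold changes of the 8 genes and the calls of other genes in daf-2 worms against the wild type are also given without this library, and sums are given per library. Gene counts do not show the lesions themselves. In hel-1 worms the hel-1 transcript had a log2 fold change of -0.16 ± 0.10 (SE) and was not called. The daf-2 transcript was called higher in daf-2 worms, at 0.33 ± 0.08 (adjusted p = 0.0308), and daf-16 stood at 0.03 ± 0.09 there, each against the wild type.

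All 8 genes passed the filter on low counts, and their levels differed widely. Per kilobase of exon, tre-1 was the most abundant, with a mean over the 8 libraries of 53.3 CPM per kb, above 83.9% of the 13722 genes tested. tre-2 followed at 31.1, gob-1 at 16.3, tre-3 at 9.52, tps-2 at 8.68, tps-1 at 5.64, tre-4 at 2.68 and tre-5 at 0.245 CPM per kb. The synthases thus stood near the middle of all genes (47.1% and 53.1% had a lower level than tps-1 and tps-2), and tre-5 near the bottom, with 8 to 31 counts per library. The ratio of the highest to the lowest library was 1.07 for tre-1, 1.40 for gob-1, 2.43 for tps-1 and 3.26 for tre-5.

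**Figure D1:**
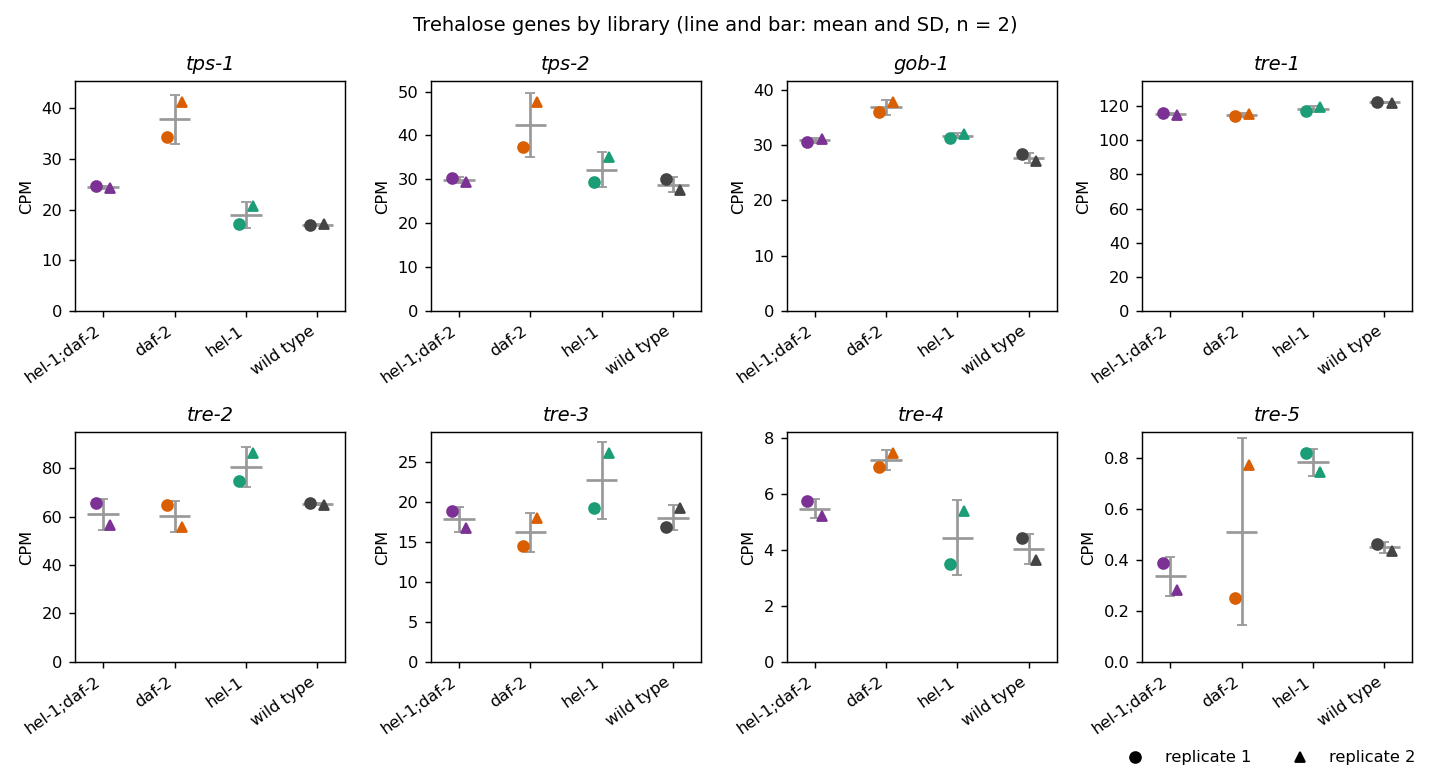
CPM (y axis, starting at 0) of each of the 8 genes in each library, by genotype (x axis); circles are replicate 1, triangles replicate 2, and lines and bars give the mean and SD of 2 libraries. tps-1, tps-2, gob-1 and tre-4 are highest in daf-2, whereas tre-1 lies between 114 and 122 CPM in every library.

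All 3 genes of trehalose synthesis were higher in daf-2 worms than in the wild type. 1 of the 5 trehalase genes, tre-4, rose with them, and the other 4 did not pass the test. Together 4 of the 8 genes rose and 0 fell at an adjusted p of 0.05 (edgeR quasi-likelihood test, n = 2 libraries per group), where 19.3% of all tested genes were called, 12.1% higher and 7.21% lower. That split was 1658 higher and 990 lower over all genes, and 1487 and 1444 with DESeq2. At an unadjusted p of 0.05 the same 4 passed, where 40.2% of all genes did, and the libraries did not overlap for 6 of the 8 genes and for 64.5% of all genes. The median log2 fold change was 0.56 for the synthesis genes, -0.09 for the trehalase genes and 0.10 for all tested genes. That last median depends on the scaling: it was 0.0326 with relative log expression scaling and 0.0314 with DESeq2. In whole worms, a change in the number of cells that make a transcript and a change in the amount per cell cannot be told apart.

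tps-1 changed most. It stood at 34.4 and 41.3 CPM in daf-2 replicates 1 and 2, against 17.0 and 17.1 CPM in the wild type. Both daf-2 libraries lay far above both wild-type libraries, and replicate 2 was the higher. The log2 fold change was 1.15 ± 0.12 (2.22-fold, adjusted p = 0.00189). tps-1 passed the test with any 1 of the 8 libraries left out (adjusted p of at most 0.0232) and stood at 1.03 without daf-2 replicate 2.

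tps-2, the second synthase gene, had 37.3 and 47.6 CPM in daf-2, against 30.0 and 27.6 CPM in the wild type. Again both daf-2 libraries lay above both wild-type libraries, but replicate 2, the library with the raised muscle and pharynx markers, was the higher by a wide margin. The log2 fold change was 0.56 ± 0.13 (1.48-fold, adjusted p = 0.0278), and 0.39 without daf-2 replicate 2 (adjusted p = 0.0704); the part of the tissue markers in it was not tested. The call also ended without wild type replicate 1 (0.103) or 2 (0.176) and without hel-1;daf-2 replicate 1 (0.0608) or 2 (0.0605), these values being adjusted p.

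gob-1, which completes synthesis, had 35.9 and 37.8 CPM in daf-2, against 28.4 and 27.1 CPM in the wild type. Its 2 libraries agreed closely in both genotypes. The log2 fold change was 0.41 ± 0.07 (1.33-fold, adjusted p = 0.0117), and 0.39 without daf-2 replicate 2 (adjusted p = 0.0222). The call ended with DESeq2 (adjusted p = 0.0526) and without wild type replicate 1 (0.077) or 2 (0.119).

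Among the trehalase genes, tre-4 had 6.97 and 7.48 CPM in daf-2, against 4.42 and 3.66 CPM in the wild type. Here both daf-2 libraries were high, and replicate 2 did not stand out. The log2 fold change was 0.84 ± 0.23 (1.79-fold, adjusted p = 0.0427). The estimate was 0.80 without daf-2 replicate 2, where the gene was no longer called (adjusted p = 0.107). Neither was it called without wild type replicate 1 (0.121) or 2 (0.237), without hel-1;daf-2 replicate 1 (0.0842) or 2 (0.0837), or with the replicate number as a block (0.057).

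The abundant trehalase genes showed no such rise. tre-1 had 114 and 116 CPM in daf-2, against 122 and 122 CPM in the wild type, a log2 fold change of -0.09 ± 0.06 (adjusted p = 0.299) with a 95% interval from -0.23 to 0.05. The upper bound lies below the estimate of each of the 3 synthesis genes. tre-2 had 64.7 and 55.5 CPM in daf-2, against 65.5 and 64.8 CPM in the wild type (-0.12 ± 0.11, interval -0.37 to 0.14). tre-3 had 14.5 and 18 CPM in daf-2, against 16.9 and 19.2 CPM in the wild type (-0.15 ± 0.17, interval -0.55 to 0.25), and its groups overlapped. tre-5 had 0.252 and 0.773 CPM in daf-2, against 0.465 and 0.435 CPM in the wild type. Its 2 daf-2 libraries lay on either side of the wild type, with 8 and 31 counts, so its interval was wide (-1.04 to 1.46) and holds a 2-fold change in either direction. Without daf-2 replicate 2 the log2 fold changes were -0.08 for tre-1, 0.0063 for tre-2, -0.30 for tre-3 and -0.81 for tre-5, and none of these passed (lowest adjusted p = 0.328).

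**Figure D2:**
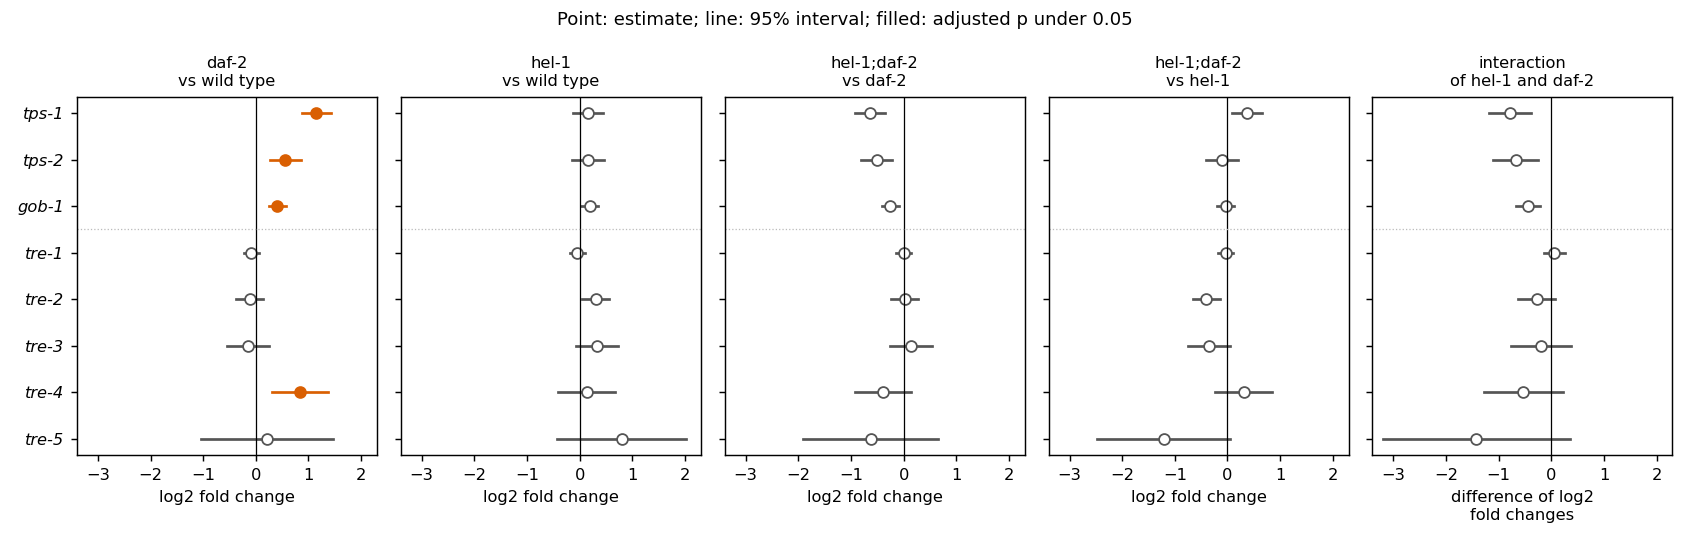
Log2 fold change (x axis) of each gene (rows; synthesis genes above the dotted line, trehalase genes below it) in the 4 comparisons, and the difference of the hel-1 effects between the daf-2 and the wild-type background in the last panel; lines are 95% intervals and filled points passed an adjusted p of 0.05. The filled points are tps-1, tps-2, gob-1 and tre-4 in daf-2 against the wild type.

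Summed per kilobase of exon, the synthase transcripts (tps-1 and tps-2) stood at 17.6 and 21.9 CPM per kb in daf-2 libraries, against 11.7 and 11.1 in wild-type libraries. The 5 trehalase transcripts summed to 92.8 and 91.5 CPM per kb in daf-2, against 97.0 and 97.3 in the wild type. Synthase transcripts thus stood higher, while the trehalase sum lay slightly lower, and tre-1 made up 48.9 to 58.1% of it in the 8 libraries. The ratio of the 2 sums was 0.214 ± 0.035 in daf-2 and 0.117 ± 0.0045 in the wild type (SD, n = 2 each). The make-up of the synthase pool differed as well. tps-1 gave 44.8 and 43.3% of it in daf-2 libraries, against 33.3 and 35.3% in wild-type libraries. These sums are given as a description, without a test.

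**Figure D3:**
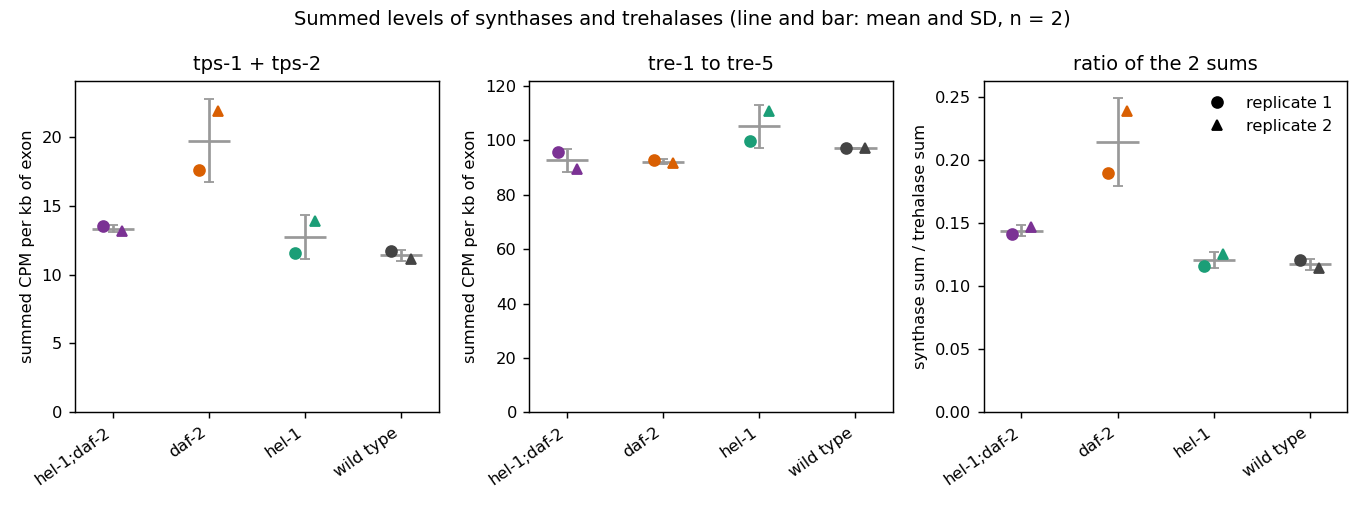
Summed CPM per kb of exon of tps-1 and tps-2 (left), of tre-1 to tre-5 (middle), and the ratio of the sums (right), per library (circles replicate 1, triangles replicate 2; lines and bars are mean and SD, n = 2). The synthase sum is highest in the 2 daf-2 libraries (17.6 and 21.9), and the trehalase sum is highest in hel-1 replicate 2 (111).

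In hel-1 worms, 0 of the 8 genes passed the test against the wild type by edgeR and 0 by DESeq2, where edgeR called 0.415% of all tested genes, 0.364% higher and 0.051% lower. The libraries did not overlap for 6 of the 8 genes and for 59.2% of all genes. At an unadjusted p of 0.05, 2 genes passed, gob-1 and tre-2, where 12.2% of all genes did. gob-1 had 31.4 and 32.0 CPM in hel-1, against 28.4 and 27.1 CPM in the wild type (0.19 ± 0.07, adjusted p = 0.353). Both hel-1 libraries lay above the wild type and below the daf-2 libraries. tre-2 had 74.5 and 86.3 CPM in hel-1, against 65.5 and 64.8 CPM in the wild type (0.30 ± 0.11, adjusted p = 0.345), its 2 highest levels of all libraries.

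The synthases differed little between hel-1 and the wild type. tps-1 had 17.1 and 20.8 CPM in hel-1, against 17.0 and 17.1 CPM in the wild type (0.15 ± 0.12, interval -0.13 to 0.44). tps-2 had 29.4 and 34.97 CPM in hel-1, against 30.0 and 27.6 CPM in the wild type (0.16 ± 0.13, interval -0.14 to 0.46). For both genes replicate 1 of hel-1 lay close to a wild-type library and replicate 2 was higher. Of the other trehalases, tre-3 had 19.3 and 26.2 CPM in hel-1 against 16.9 and 19.2 CPM in the wild type, and tre-5 had 0.822 and 0.748 CPM in hel-1 against 0.465 and 0.435 CPM in the wild type. Neither passed (adjusted p = 0.473 and 0.53). The trehalase sum was 99.6 and 111 CPM per kb in hel-1 and 97.0 and 97.3 in the wild type.

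The hel-1;daf-2 double mutant had lower levels of all 3 synthesis genes than daf-2, without overlap between the libraries, but none of these differences passed the test after adjustment. edgeR called 0 of the 8 genes and 0.051% of all tested genes, 0.0146% higher and 0.0364% lower. At an unadjusted p of 0.05, 3 of the 8 passed, the 3 synthesis genes, where 16.8% of all genes did. DESeq2 called 1 of the 8, tps-1 (adjusted p = 0.0233), and 256 of all genes. The median log2 fold change was -0.51 for the synthesis genes, 0.01 for the trehalase genes and -0.02 for all tested genes. Libraries that did not overlap were found for 4 of the 8 genes and for 53.3% of all tested genes.

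tps-1 stood at 24.6 and 24.2 CPM in hel-1;daf-2, against 34.4 and 41.3 CPM in daf-2. The double mutant lay between daf-2 and the wild type, overlapping neither, with a log2 fold change of -0.63 ± 0.12 against daf-2 (0.645-fold, adjusted p = 0.191, interval -0.91 to -0.35). Without daf-2 replicate 2 it stood at -0.49, and without daf-2 replicate 1 at -0.73. The size of the difference thus depended on which daf-2 library was kept. Without replicate 1, daf-2 is represented only by replicate 2, the library with the raised muscle and pharynx markers.

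tps-2 had 30.2 and 29.3 CPM in hel-1;daf-2, against 37.3 and 47.6 CPM in daf-2. One double-mutant library lay above and one within the wild-type values of 30.0 and 27.6 CPM. The log2 fold change against daf-2 was -0.51 ± 0.13 (adjusted p = 0.249), -0.32 without daf-2 replicate 2 and -0.65 without daf-2 replicate 1. gob-1 had 30.6 and 31.2 CPM in hel-1;daf-2, against 35.9 and 37.8 CPM in daf-2. The double mutant stood above the wild-type libraries (28.4 and 27.1 CPM) and below both hel-1 libraries. The log2 fold change was -0.26 ± 0.07 (adjusted p = 0.26), -0.21 without daf-2 replicate 2 and -0.26 without daf-2 replicate 1.

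The trehalases showed no common direction between the double mutant and daf-2. tre-1 had 116 and 115 CPM in hel-1;daf-2, against 114 and 116 CPM in daf-2 (0.01 ± 0.06, interval -0.14 to 0.15), the narrowest interval of the 8 genes. tre-2 (0.02 ± 0.11) and tre-3 (0.13 ± 0.17) overlapped likewise. tre-4 had 5.74 and 5.24 CPM in hel-1;daf-2, against 6.97 and 7.48 CPM in daf-2 (-0.40 ± 0.23, adjusted p = 0.349), and did not overlap. tre-5 had 0.391 and 0.282 CPM in hel-1;daf-2, against 0.252 and 0.773 CPM in daf-2, with 13 and 9 counts in the double mutant. Without daf-2 replicate 2 the log2 fold changes were 0.02 for tre-1, -0.0765 for tre-2, 0.30 for tre-3, -0.33 for tre-4 and 0.42 for tre-5, with adjusted p of at least 0.784. The ratio of synthase to trehalase sums was 0.144 ± 0.0041 in hel-1;daf-2 and 0.214 ± 0.035 in daf-2 (SD, n = 2 each), and the tps-1 share of synthase transcripts was 41.7 and 42.1% in hel-1;daf-2 against 44.8 and 43.3% in daf-2.

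Set against hel-1, the double mutant shows the daf-2 mutation in hel-1 worms. edgeR called 0 of the 8 genes and 5.61% of all tested genes, 2.96% higher and 2.65% lower. The libraries did not overlap for 6 of the 8 genes and for 66.9% of all genes. 2 of the 8 passed an unadjusted p of 0.05, where 22.9% of all genes did, and DESeq2 called 0. tps-1 had 24.6 and 24.2 CPM in hel-1;daf-2, against 17.1 and 20.8 CPM in hel-1 (0.37 ± 0.12, adjusted p = 0.133), and did not overlap. It was called without daf-2 replicate 1 (0.0422) or 2 (0.0457), libraries that enter this comparison only through the shared estimate of the spread. tre-2 had 65.5 and 56.4 CPM in hel-1;daf-2, against 74.5 and 86.3 CPM in hel-1 (-0.40 ± 0.11, adjusted p = 0.0804). It was called without daf-2 replicate 1 (0.0302) or 2 (0.0299), and in a fit of these 2 genotypes alone (0.0382). tre-5 was called in that fit too (-1.2, adjusted p = 0.0454). tps-2 (-0.11 ± 0.13) and gob-1 (-0.04 ± 0.07) stood near 0.

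The interaction, the hel-1 effect in daf-2 worms minus the hel-1 effect in wild-type worms, asks whether hel-1 acts differently in the 2 backgrounds. For tps-1 the hel-1 effect was -0.63 in daf-2 and 0.15 in the wild type, a difference of -0.79 ± 0.17 (adjusted p = 0.0865). For tps-2 it was -0.51 in daf-2 and 0.16 in the wild type, a difference of -0.68 ± 0.18 (adjusted p = 0.115), and for gob-1 -0.26 in daf-2 and 0.19 in the wild type, a difference of -0.45 ± 0.10 (adjusted p = 0.0889). All 3 differences were negative with 95% intervals below 0, and none passed the adjusted threshold. The interaction uses the same daf-2 and wild-type libraries as the daf-2 rise, so its values are not independent of that rise. edgeR called 0 of the 8 genes and 0.823% of all tested genes (0.0729% higher and 0.751% lower). 3 of the 8 passed an unadjusted p of 0.05 where 27.7% of all genes did. DESeq2 called 1 of the 8, tps-1 (adjusted p = 0.049), and 619 of all genes. The median over the synthesis genes was -0.68, over the trehalase genes -0.28 and over all tested genes -0.09. tre-1 stood at 0.05 ± 0.09. With 1 library left out, the difference ran from -0.91 to -0.63 for tps-1, -0.79 to -0.50 for tps-2 and -0.47 to -0.41 for gob-1. For tps-1 it stood at -0.66 without daf-2 replicate 2.

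By genotype, tps-1 ran from daf-2 (37.8 ± 4.87 CPM) through hel-1;daf-2 (24.4 ± 0.264) and hel-1 (19 ± 2.59) to the wild type (17.0 ± 0.0715; SD, n = 2 each), with no overlap between neighbours. tps-2 ran from daf-2 (42.5 ± 7.30) through hel-1 (32.2 ± 3.92) and hel-1;daf-2 (29.8 ± 0.666) to the wild type (28.8 ± 1.67), and only daf-2 stood clear of the rest. gob-1 ran from daf-2 (36.9 ± 1.35) through hel-1 (31.7 ± 0.461) and hel-1;daf-2 (30.9 ± 0.431) to the wild type (27.7 ± 0.937), without overlap. tre-2 had another order, from hel-1 (80.4 ± 8.33) through the wild type (65.1 ± 0.531) and hel-1;daf-2 (60.9 ± 6.43) to daf-2 (60.1 ± 6.44), and the hel-1;daf-2 libraries overlapped those of daf-2 and of the wild type.

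Genes that supply the sugar phosphates used for trehalose were read beside these. Of 11 tested genes of glucose phosphate and UDP-glucose supply, 4 rose in daf-2, 0 fell and 7 did not pass, where 12.1% of all genes were called higher and 7.21% lower (median 0.04, against 0.10 for all genes). The 4 are genes of the glyoxylate cycle and gluconeogenesis. pck-1, a phosphoenolpyruvate carboxykinase gene, had 97.2 and 197 CPM in daf-2, against 22.4 and 20.5 CPM in the wild type (2.78 ± 0.29, adjusted p = 0.00181; 2.20 without daf-2 replicate 2). icl-1, for the glyoxylate enzyme with isocitrate lyase and malate synthase activity, had 166 and 379 CPM in daf-2, against 73.2 and 72.3 CPM in the wild type (1.91 ± 0.35, adjusted p = 0.0139). It stood at 1.2 without daf-2 replicate 2, and its call ended if wild type replicate 1 (0.0835) or 2 (0.099) was left out. pck-2 rose by 1.07 ± 0.13 (adjusted p = 0.00284; 0.97 without daf-2 replicate 2) and the fructose bisphosphatase gene fbp-1 by 0.48 ± 0.07 (adjusted p = 0.00721). fbp-1 stood at 0.43 without daf-2 replicate 2, and its call ended if wild type replicate 1 (0.0704) or 2 (0.0793) was left out.

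The steps next to the synthases did not pass. The phosphoglucomutase gene pgm-1 averaged 232 ± 18.4 CPM in daf-2 and 232 ± 5.03 CPM in the wild type (-0.0009 ± 0.0819), and the nucleotide sugar gene rml-1 averaged 559 ± 63.6 CPM in daf-2 and 633 ± 39.9 CPM in the wild type (-0.18 ± 0.11). In hel-1, 1 of the 11 rose, gale-1, the epimerase of UDP-glucose and UDP-galactose (90.9 ± 5.6 CPM in hel-1 and 58.1 ± 6.61 CPM in the wild type; 0.65 ± 0.09, adjusted p = 0.0426). It was called in 2 of the 8 fits that leave out 1 library, those without a daf-2 library. It fell in the double mutant against hel-1 (-0.80 ± 0.09, adjusted p = 0.00422), where fbp-1 rose (0.35 ± 0.07, adjusted p = 0.0338; called in 2 of the 8 such fits). Between the double mutant and daf-2, edgeR called 0 of the 11, with 1 at an unadjusted p of 0.05, where 16.8% of all genes passed. DESeq2 called 1 of the 11 and 256 of all genes. pck-1 had 55.4 and 59.1 CPM in hel-1;daf-2, against 97.2 and 197 CPM in daf-2 (-1.36 ± 0.28, adjusted p = 0.204), the same order as tps-1.

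Glycogen is the other carbohydrate store of the worm. Of 10 tested genes of glycogen synthesis and breakdown, 1 rose in daf-2, 0 fell and 9 did not pass, a share no higher than the 12.1% of all genes called higher (median -0.04, against 0.10 for all genes). It was aagr-1, of the acid alpha-glucosidase family, with 51.0 and 61.7 CPM in daf-2, against 21.2 and 19.3 CPM in the wild type (1.48 ± 0.17, adjusted p = 0.00225; 1.35 without daf-2 replicate 2). The glycogen synthase gene gsy-1 averaged 253 ± 42.5 CPM in daf-2 and 284 ± 10.8 CPM in the wild type (-0.17 ± 0.11). In the double mutant against hel-1, aagr-1 rose (0.93 ± 0.16, adjusted p = 0.0204; 5 of the 8 fits) and so did the glycogen phosphorylase gene pygl-1 (0.57 ± 0.13, adjusted p = 0.0474; 2 of the 8 fits, and not with another scaling, 0.0735). Comparing hel-1 with the wild type, and the double mutant with daf-2, edgeR and DESeq2 called 0 of the 10, with 1 at an unadjusted p of 0.05 in each, where 12.2% and 16.8% of all genes passed.

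Of 6 tested genes of the osmotic and desiccation response, 3 rose in daf-2, 1 fell and 2 did not pass. Of all genes, 12.1% were called higher and 7.21% lower. DESeq2 called 5 of the 6, and its counts over all genes in this comparison are given above. The median was 1.43, against 0.10 for all genes. It takes in hmit-1.2 (2.31 ± 1.03, adjusted p = 0.132), which had 16 and 340 counts in daf-2 replicates 1 and 2. lea-1, whose late embryogenesis abundant protein protects drying cells, had 2750 and 2054 CPM in daf-2, against 320 and 424 CPM in the wild type (2.69 ± 0.31, adjusted p = 0.00233; 2.90 without daf-2 replicate 2). It stayed high in the double mutant, with 2711 and 2627 CPM in hel-1;daf-2, against 393 and 738 CPM in hel-1 (2.24 ± 0.30, adjusted p = 0.00693). Its log2 fold change between the double mutant and daf-2 was 0.15 ± 0.29, with an interval of -0.51 to 0.82. The myo-inositol transporter genes hmit-1.3 (1.36 ± 0.22, adjusted p = 0.00983) and hmit-1.1 (1.5 ± 0.32, adjusted p = 0.0225) rose in daf-2, and gpdh-1, the glycerol-3-phosphate dehydrogenase gene of glycerol synthesis, fell to 0.874 ± 0.210 CPM in daf-2, against 2.68 ± 0.364 CPM in the wild type (-1.61 ± 0.35, adjusted p = 0.0229). These 3 calls ended with either wild-type library left out (adjusted p from 0.058 to 0.128), and that of hmit-1.1 without daf-2 replicate 2 (1.28, adjusted p = 0.063), where hmit-1.3 stood at 1.26 and gpdh-1 at -1.86, both called. hmit-1.3 also rose in the double mutant against hel-1 (1.07 ± 0.22, adjusted p = 0.0338; 3 of the 8 fits). In hel-1 against the wild type edgeR and DESeq2 called 0 of the 6, with 1 at an unadjusted p of 0.05, where 12.2% of all genes passed. This was hmit-1.1 (1.42 ± 0.32, edgeR adjusted p = 0.136). Its counts were low, 34 and 35 in the wild type and 93 and 100 in hel-1. In the double mutant against daf-2 edgeR called 0, with 2 at an unadjusted p of 0.05, where 16.8% of all genes passed. DESeq2 called 1 of the 6 there and 256 of all genes.

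**Figure D4:**
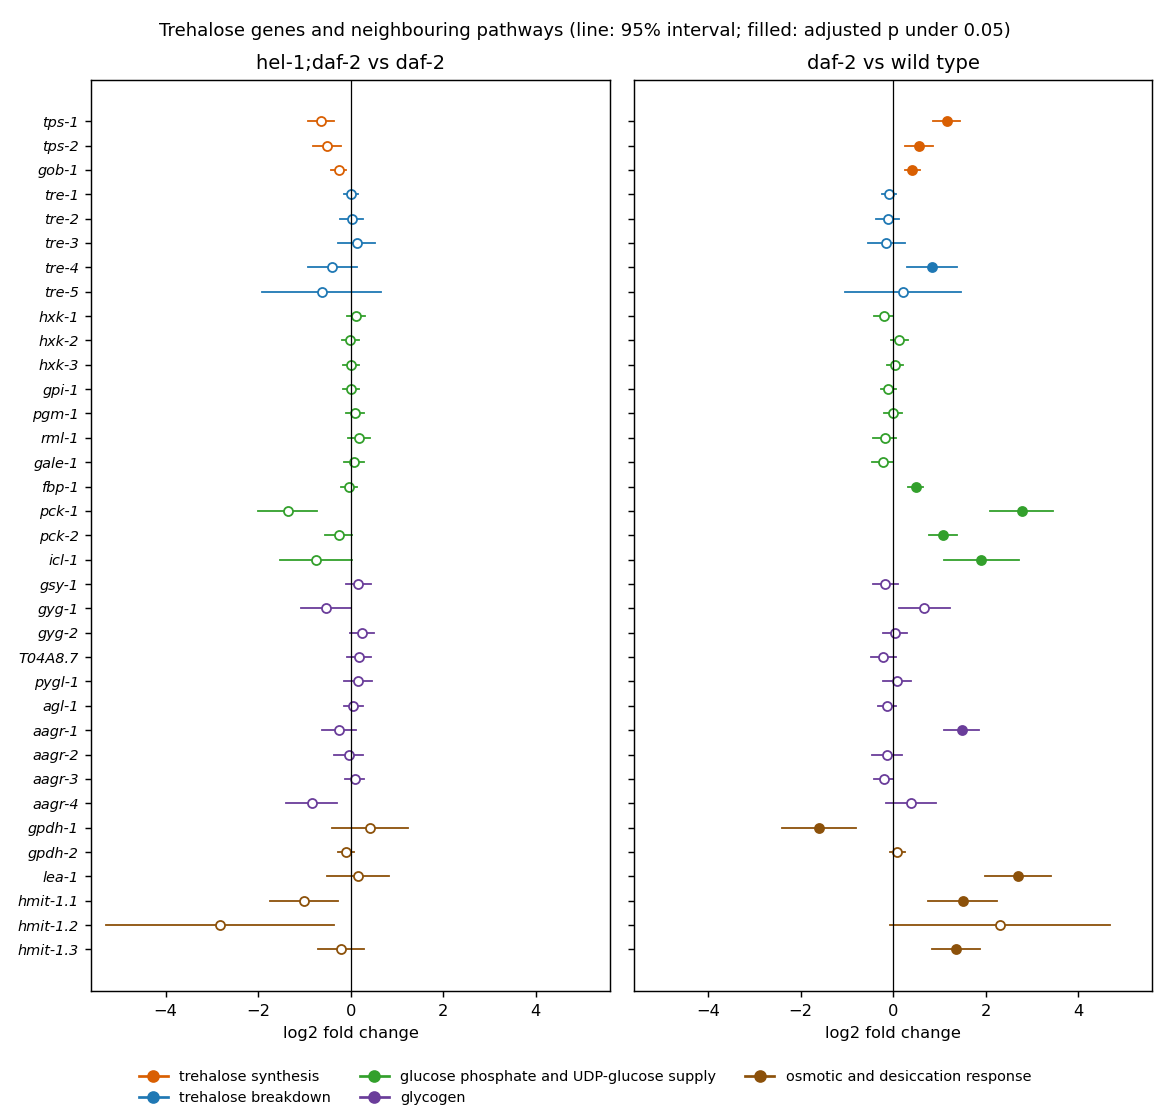
Log2 fold change (x axis) of the 8 trehalose genes and of the genes of sugar phosphate supply, glycogen, and the osmotic and desiccation response (rows), in the double mutant against daf-2 (left) and daf-2 against the wild type (right); lines are 95% intervals and filled points passed an adjusted p of 0.05. On the left no point is filled; on the right pck-1 (2.78) and lea-1 (2.69) lie farthest to the right among the filled points. Both panels use the daf-2 libraries.

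Of 11 tested regulators of insulin/IGF-1 signaling, 3 rose in daf-2, 0 fell and 8 did not pass, where 12.1% of all genes were called higher and 7.21% lower (median 0.03, against 0.10 for all genes). They were the kinase genes akt-2 (0.96 ± 0.21, adjusted p = 0.023) and pdk-1 (0.65 ± 0.15, adjusted p = 0.0261) and the receptor gene daf-2 itself (0.33 ± 0.08, adjusted p = 0.0308). Without daf-2 replicate 2, 1 of the 11 was called, daf-2 (0.38, adjusted p = 0.0315), and akt-2 (0.66, adjusted p = 0.0548) and pdk-1 (0.57, adjusted p = 0.0663) were not. The akt-2 and pdk-1 calls also ended without either wild-type or either hel-1;daf-2 library (adjusted p from 0.0514 to 0.155). akt-2 and pdk-1 were called in 3 of the 8 fits that leave out 1 library and daf-2 in 2, those without a daf-2 library, and daf-2 was not called with another scaling (0.0864) or by DESeq2 (0.0858). edgeR called 0 of the 11 in the other comparisons. At an unadjusted p of 0.05, 1 passed in hel-1 against the wild type, 4 in the double mutant against hel-1, 0 in the double mutant against daf-2 and 1 in the interaction, where 12.2, 22.9, 16.8 and 27.7% of all genes passed. DESeq2 called 1 in hel-1 against the wild type, where it called 246 of all genes, and 0 in the others.

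The genes whose levels ran most like those of the synthesis genes were ranked by Pearson's r of log2 (CPM + 1) over the 8 libraries, among 6777 other genes with a mean of at least 10 CPM. The libraries share genotypes in pairs, so r is a description. Closest to tps-1 were pck-1 (r = 0.987), F21C10.10 (0.984) and the annexin gene nex-2 (0.982). The mean CPM of nex-2 was 29.7 ± 1.68 for hel-1;daf-2, 41.5 ± 4.57 for daf-2, 24.5 ± 1.92 for hel-1 and 20.7 ± 1.63 for wild type. Closest to tps-2 were yap-1 (0.980), VF13D12L.3 (0.976) and C18C4.7 (0.973). Closest to gob-1 were the aquaporin gene aqp-2 (0.978), gei-1 (0.977) and dao-3 (0.977). The mean CPM of aqp-2 was 25.8 ± 3.50 for hel-1;daf-2, 46.2 ± 8.50 for daf-2, 27.8 ± 3.28 for hel-1 and 17.7 ± 1.57 for wild type. Its order of genotypes, with daf-2 highest and the wild type lowest, follows largely from its choice by correlation with gob-1.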

How the data were processed

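The deposited files hold RSEM expected counts per gene, 1 file per library, as the authors made them and per the file headers. The submitters' processing notes name RSEM 1.3.1, cutadapt, TopHat2, Bowtie, HTSeq and edgeR and the builds WBcel235 and ce11. Their roles and the use of strand are not given in the sources used here. Of 46904 gene identifiers, 46817 are in the WBcel235 annotation (Ensembl) used for symbols, positions and exon lengths.

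Expected counts were rounded to whole numbers (at most 2.79% of a library's values were not whole). Differences were tested with edgeR 4.0.16 in R 4.3.3 (filterByExpr, 13722 genes, TMM, 1 quasi-likelihood model of 4 group means over all 8 libraries, 4 residual degrees of freedom), with Benjamini-Hochberg adjustment over all tested genes and a threshold of 0.05. CPM uses TMM-scaled library sizes. CPM per kb divides by merged exon length. Values after ± are SE for log2 fold changes and SD of 2 libraries for levels, and intervals are 95%. The alternatives were relative log expression scaling, DESeq2 1.42.0, no filter, fits of only the groups compared, the replicate block and leaving out each library. The edgeR steps were tested on simulated data. The p-values measure only the spread between libraries of the same genotype, estimated jointly over the 4 genotypes and moderated across genes.

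The 8 genes and the lists were chosen with earlier results of these data known. Besides the 8, genes were named by rule: up to 4 called members per list and comparison with the smallest adjusted p, the 3 genes most correlated with each synthesis gene, and hel-1, daf-2 and daf-16. pgm-1, rml-1 and gsy-1, pck-1 in the double mutant, hmit-1.1 in hel-1 and hmit-1.2 in daf-2 were named after their values were seen. Of 108 list names, 4 did not match exactly 1 gene and were left out, and rml-1 was matched by its RefSeq locus tag. No sequences are shown.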

Additional observations from a re-analysis of the deposited data

How the results depend on the processing

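The direction and call of the 8 genes were followed through each alternative. tps-1 in daf-2 against the wild type was called under every alternative run, with log2 fold changes from 1.03 to 1.25. The count of the 8 genes called in daf-2 (4) was 1 in a fit of those 2 genotypes alone, where all genes called went from 2648 to 424, and between 1 and 4 with 1 library left out (297 to 7163 of all genes). In hel-1 against the wild type 0 of the 8 were called under every alternative, while all genes called (57) were 246 with DESeq2, 361 without the filter, 213 in the fit of the 2 genotypes alone, and 9 to 482 with 1 library left out.

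In the double mutant against daf-2, 0 of the 8 and 7 of all genes were called. These were 1 and 256 with DESeq2, 2 and 610 without the filter, 0 and 0 in the fit of the 2 genotypes alone, and 0 to 3 and 0 to 5812 with 1 library left out. In the double mutant against hel-1, 0 and 770 became 1 and 1278 without the filter, 2 and 2909 in the fit of the 2 genotypes alone, and 0 to 2 and 149 to 2272 with 1 library left out. For the interaction, 0 and 113 became 1 and 619 with DESeq2, 2 and 1215 without the filter, and 0 to 4 and 7 to 6664 with 1 library left out. The highest counts came without daf-2 replicate 1, except in the 2 comparisons that do not use daf-2 libraries. Where a lone library was left in a genotype, it is assumed to vary like the others. The cause of these shifts was not tested.

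The values that changed sign were not called in the edgeR fit of all 8 libraries. In the fits that leave out 1 library, tre-2 in daf-2 against the wild type ran from -0.26 to 0.0063 and tre-5 from -0.81 to 0.74, and tre-4 in hel-1 from -0.21 to 0.41. In the double mutant against daf-2, tre-2 ran from -0.0818 to 0.17 and tre-5 from -1.16 to 0.42, and tre-1 was -0.016 in the fit of the 2 genotypes alone. tps-2 in the double mutant against hel-1 ran from -0.23 to 0.0179 and the interaction of tre-3 from -0.39 to 0.0504.

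Deviations of same-numbered libraries from their group means correlated at -0.48 to 0.23 over the 6 pairs of genotypes. With 2 libraries per genotype these values cannot decide whether same-numbered libraries were prepared together. The libraries were treated as unpaired. With the replicate number as a block, 3 of the 8 genes were called in daf-2 against the wild type (2370 of all genes), 0 in the other comparisons, and 11 of all genes in the double mutant against daf-2. Depth limits tre-5, with 8 to 31 counts per library, and 2 libraries per genotype limit the rest.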
